A study of Mus musculus with 10 samples.

Results

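Interferon-induced genes and genes of class I antigen presentation were compared between 2 populations of small-intestinal epithelial cells that differ in the level of GUCY2C, the guanylyl cyclase C receptor of the intestinal epithelium. The set was a list of 36 named genes out of 54532 genes in the count table, chosen by name as the interferon and class I genes of the epithelium. Of these, 35 passed the filter on low counts and were tested among 15703 genes, and Gbp2, a guanylate-binding GTPase, was not tested because it stayed between 0.0603 and 0.454 cpm (read counts scaled per library to a common total). The 36 genes comprised 1 interferon receptor chain, 4 transcription factors, 4 nucleic acid sensors, 2 genes of the Isg15 conjugation system, 8 antiviral effectors, 5 other induced genes, 5 interferon-induced GTPases and 7 class I genes.

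Small-intestinal cells came from 5 Gucy2c-GFP animals on CD1/ICR, an outbred background. They were litter-matched, 10 weeks old, and expressed GFP from a transgene under the Gucy2c promoter. No mouse received a treatment, and both groups carried the reporter. Cells of each mouse were sorted by GFP into a GUCY2Chi group (labelled neuropod cells, which are enteroendocrine cells that contact neurons) and a GUCY2Cmed group (named Medium or Lo in the labels). Each group had 5 RNA-seq libraries, numbered 2, 7, 12, 14 and 15, from 20000 cells each, and these numbers were taken as mouse numbers. The gate rests on reporter fluorescence, so a group holds whichever cell types fall within it.

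Library totals ranged from 13090212 to 13520800 counts in GUCY2Chi and from 10903958 to 15307932 in GUCY2Cmed. Gucy2c itself was at 549 to 1757 cpm in GUCY2Chi and 323 to 483 cpm in GUCY2Cmed, with no overlap (edgeR adjusted p = 0.00187, and 0.0115 with the mouse as a replicate block). Its level in GUCY2Chi was 120% of that in GUCY2Cmed in mouse 15, against 316% to 469% in the other mice. The summed level of 12 enteroendocrine markers was 32811 to 127085 cpm in GUCY2Chi and 109 to 280 cpm in GUCY2Cmed. The GUCY2Chi libraries of mice 12 and 15 stood apart from the other GUCY2Chi libraries in enterocyte markers: the sum of 12 of them was 45.8% and 43.0% of the GUCY2Cmed library of the same mouse there, against 5.63% to 6.27% in mice 2, 7 and 14. The sum of 10 T cell and intraepithelial lymphocyte markers was also highest in these libraries, at 284 and 240 cpm, against 29.8 to 68.8 cpm in the other GUCY2Chi libraries and 34.3 to 190 cpm in GUCY2Cmed, and none of the 10 was at 0 throughout a group. The sum of 12 macrophage and dendritic cell markers was 22.1 to 111 cpm in GUCY2Chi and 3.69 to 8.57 cpm in GUCY2Cmed. Of these sums, C1qa alone gave 13.7 to 108 cpm and 0.0803 to 1.40 cpm. Adgre1 was at 0 in every GUCY2Cmed library and at most 0.0603 cpm in GUCY2Chi. Mean levels of Cd68, Csf1r, Itgam, Aif1 and Cx3cr1 were lower in GUCY2Chi, and those of the other markers of this list were higher. B and plasma cell markers summed to at most 2.35 cpm. The sum of 6 Paneth markers was 45619 and 26810 cpm in GUCY2Chi of mice 2 and 14. It was 6163 to 10320 cpm in the other GUCY2Chi libraries and 6519 to 15331 cpm in GUCY2Cmed. The sum of 7 goblet markers was 3003 to 23420 cpm in GUCY2Chi, highest in mouse 2, and 4847 to 13021 cpm in GUCY2Cmed. The sum of 6 forebrain neuron markers was 26.5 to 1105 cpm in GUCY2Chi, highest in mouse 15, and 11.6 to 619 cpm in GUCY2Cmed. In these bulk libraries, fewer cells of a type and less RNA per cell cannot be told apart.

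Interferons are antiviral cytokines. Type I and type III interferons (the latter acting mainly on epithelia through Ifnlr1) signal through a complex containing STAT2 and IRF9 that binds the interferon-stimulated response element (ISRE), and type II interferon acts through the gamma-activated site (GAS). Among the induced genes are the immunoproteasome subunits and the TAP peptide transporter, which supply peptides to class I molecules, each a heavy chain paired with beta-2 microglobulin, for display to CD8 T cells.

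The promoters of the genes were searched for the cores of the ISRE and the GAS. The genes were chosen by name as interferon and class I genes, so an excess of these cores is not independent of that choice. RefSeq windows (GRCm38.p6, 250 bases before to 50 after each transcription start) were matched for 30 of the 36 genes. The ISRE core GAAANNGAA, searched on both strands, occurred in the windows of 17 of these 30 genes (56.7%) and in those of 9.76% of 27025 genes. The GAS core TTCNNNGAA, which reads the same on both strands and can overlap an ISRE core, occurred in 10 of 30 (33.3%) and in 9.55% of all genes. There were 5 genes with both cores (Oas1a, Bst2, Apol10a, Gbp7 and Igtp) and 8 with neither. A match is a description of the letters and not a measured binding site. The 160 bases before the start are given 5′ to 3′ on the gene's own strand, with ISRE core matches in capitals and overlapping matches run together, for 6 genes that carry the core and whose levels are described below, and for Tap1, which has none in its window.
Isg15 (chr4:156200819-156200978, minus strand): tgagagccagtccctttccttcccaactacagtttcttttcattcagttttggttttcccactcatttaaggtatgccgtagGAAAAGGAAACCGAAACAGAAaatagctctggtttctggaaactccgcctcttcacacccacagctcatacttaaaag
Ifit1 (chr19:34640729-34640888, plus strand): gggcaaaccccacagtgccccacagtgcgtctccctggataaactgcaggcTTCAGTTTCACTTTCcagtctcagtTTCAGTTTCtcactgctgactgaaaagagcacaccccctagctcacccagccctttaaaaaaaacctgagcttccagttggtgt
Ifit3 (chr19:34583369-34583528, plus strand): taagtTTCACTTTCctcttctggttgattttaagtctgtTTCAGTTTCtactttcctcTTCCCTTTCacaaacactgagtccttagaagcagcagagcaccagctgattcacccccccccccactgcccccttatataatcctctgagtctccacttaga
Apol10a (chr15:77476887-77477046, plus strand): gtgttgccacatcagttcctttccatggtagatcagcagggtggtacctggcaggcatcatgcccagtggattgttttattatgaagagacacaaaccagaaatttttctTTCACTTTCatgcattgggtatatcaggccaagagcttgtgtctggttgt
Igtp (chr11:58199396-58199555, plus strand): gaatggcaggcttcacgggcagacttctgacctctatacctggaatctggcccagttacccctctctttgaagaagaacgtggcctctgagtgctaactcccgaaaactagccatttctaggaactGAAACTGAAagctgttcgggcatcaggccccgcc
B2m (chr2:122147527-122147686, plus strand): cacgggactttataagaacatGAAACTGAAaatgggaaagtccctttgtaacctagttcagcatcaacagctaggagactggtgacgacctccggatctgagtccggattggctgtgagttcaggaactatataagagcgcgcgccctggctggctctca
Tap1 (chr17:34187396-34187555, plus strand): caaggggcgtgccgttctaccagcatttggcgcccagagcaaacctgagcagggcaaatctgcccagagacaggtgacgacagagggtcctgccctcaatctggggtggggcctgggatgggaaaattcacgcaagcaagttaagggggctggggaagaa
In the stretches shown, Ifit3 carries 3 separate copies of the core, Ifit1 and Isg15 carry overlapping copies, and Apol10a, Igtp and B2m carry 1 copy each. The RefSeq windows of Tap1 and Psmb9 lie on opposite strands and share 275 bases (chr17:34187306-34187580), so the stretch shown for Tap1 also lies in the Psmb9 window.

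Most genes of the set had lower levels in GUCY2Chi than in GUCY2Cmed cells. The list was drawn up with earlier results of these data known, so the shares below are not independent of that choice. At an adjusted p under 0.01 (edgeR quasi-likelihood test over all 15703 genes, Benjamini-Hochberg adjustment), 9 of 35 genes fell (25.7%, where 8.79% of all genes tested fell), 1 rose (Usp18, where 13.9% of all genes rose) and 25 did not pass. The genes that fell were Ifnlr1, Irf8, Ddx58, Ifit3, Trim38, Apol10a, Psmb9, Tap1 and Tap2. The log2 fold change was below 0 for 32 of 35 genes (91.4%, against 45.4% of all genes), with a median of -1.22 against 0.09 for all genes. GUCY2Chi and GUCY2Cmed libraries did not overlap for 11 genes, all lower in GUCY2Chi (13.2% of all genes were lower without overlap), and 24 genes were lower in GUCY2Chi in 5 of 5 mice (23.1% of all genes). With the mouse as a replicate block, 5 genes were lower (Irf8, Ddx58, Psmb9, Tap1 and Tap2, where 4.96% of all genes were) and 0 higher (8.24% of all genes), and Usp18 was the 1 gene higher in the fit without that block. The same block in limma-voom gave 12 lower (8.80% of all genes) and 1 higher (11.6%). Without mouse 7, 4 were lower (Irf8, Trim38, Psmb9 and Tap1, where 2.19% of all genes were) and Usp18 higher (9.96% of all genes). Scaling by library totals alone gave 7 lower (3.55% of all genes), DESeq2 gave 16 (14.2%), and an adjusted p under 0.05 gave 21 (17.6%).

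**Figure D1:**
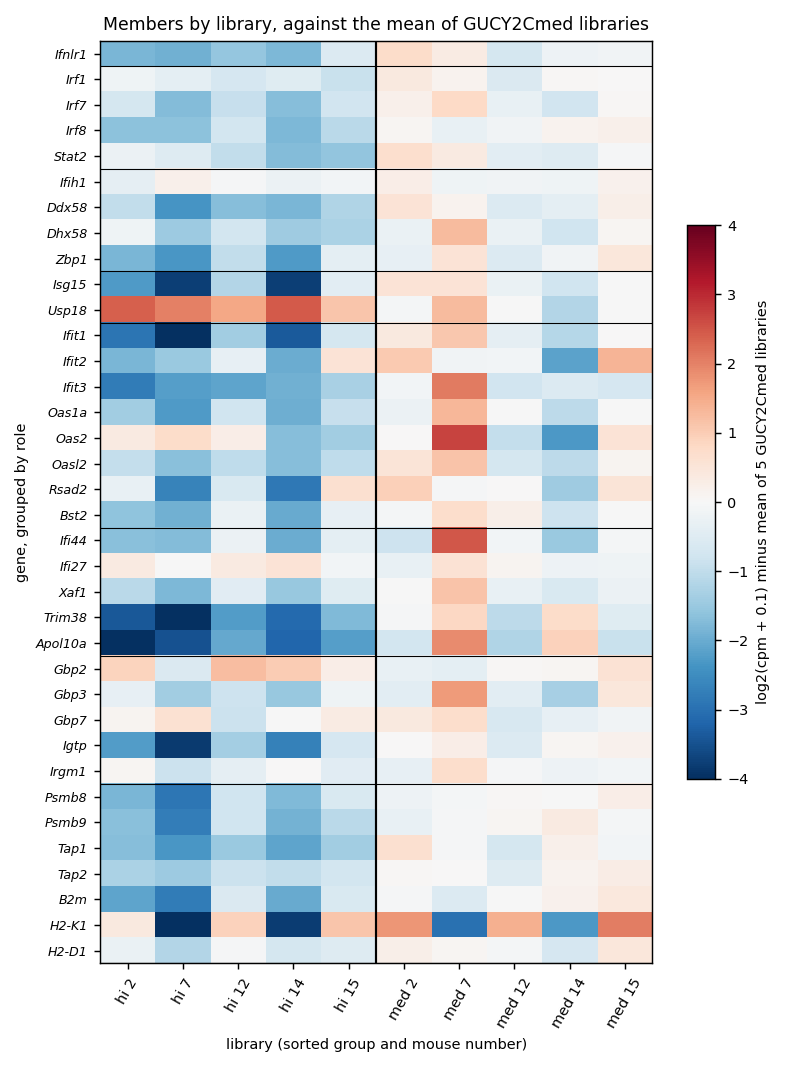
Level of each of the 36 genes in each library, as log2(cpm + 0.1) minus the mean of the 5 GUCY2Cmed libraries, with red above and blue below that mean, columns by sorted group and mouse number, and horizontal lines between roles. Most rows are blue in the GUCY2Chi columns, Usp18 is red there, and H2-K1 is low in mice 7 and 14 in both groups.

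**Figure D2:**
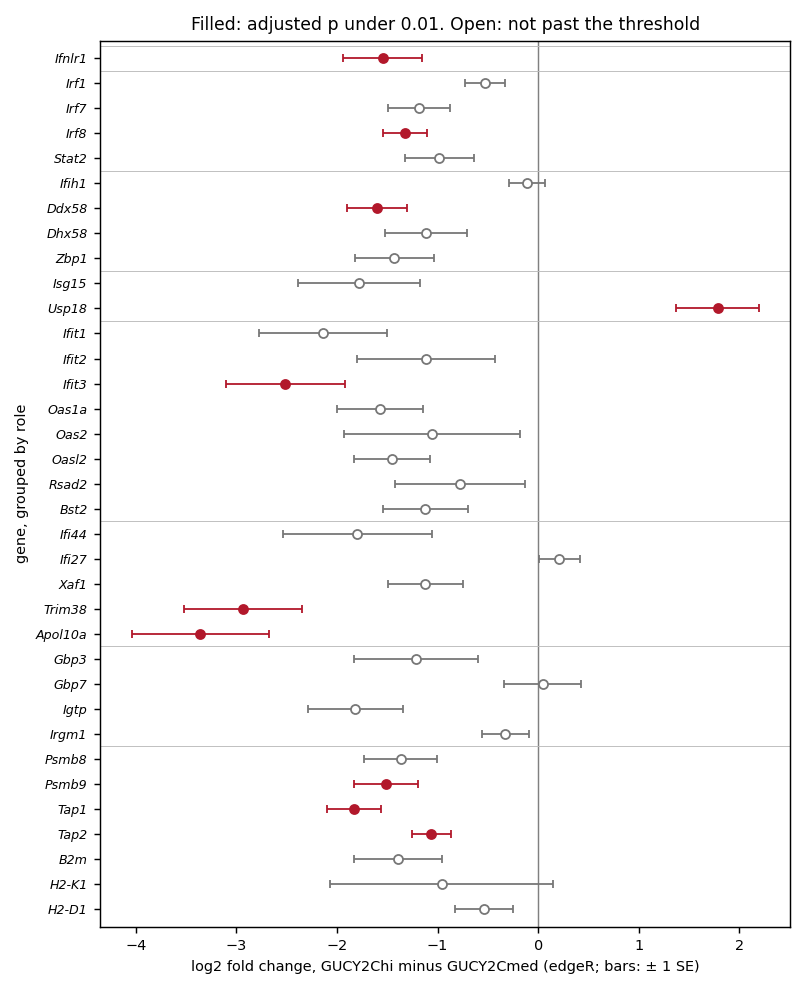
Log2 fold change (GUCY2Chi minus GUCY2Cmed) with ± 1 SE for the 35 genes tested, by role, from the edgeR fit, with filled points for an adjusted p under 0.01. The 9 filled points to the left of 0 run from -3.36 (Apol10a) to -1.06 (Tap2), and Usp18 at 1.78 is the single filled point to the right.

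Ifnlr1, the ligand-specific chain of the type III interferon receptor, was at 1.34, 1.27, 1.67, 1.39 and 3.46 cpm in the GUCY2Chi libraries of mice 2, 7, 12, 14 and 15 and at 8.43, 6.42, 3.10, 4.36 and 4.54 cpm in the GUCY2Cmed libraries in the same order of mice. It was lower in GUCY2Chi in 5 of 5 mice, and the GUCY2Chi library of mouse 15 reached into the GUCY2Cmed range. The log2 fold change was -1.55 (SE 0.39, adjusted p = 0.00925). The call was narrow: it held in 1 of 10 fits that each left out 1 library, and the adjusted p was 0.0284 with the mouse as a replicate block.

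The transcription factors that relay the signal were lower in GUCY2Chi in every mouse, and 1 of 4 passed the test. Irf8, an interferon regulatory factor best known from myeloid and B cells, was at 44.5, 44.9, 83.6, 40.1 and 66.1 cpm in GUCY2Chi and 146, 114, 127, 154 and 159 cpm in GUCY2Cmed (mice in the order 2, 7, 12, 14, 15, as in all lists of values below). The groups did not overlap and the level fell 2.50-fold (log2 fold change -1.32, SE 0.22, adjusted p = 0.00112). Irf8 stayed past the threshold in all 20 alternative analyses run, among them the fits without mice 12 and 15 and without mouse 7. Irf7, the factor that amplifies type I interferon production, had a log2 fold change of -1.19 (SE 0.31, adjusted p = 0.0114), Stat2 of -0.98 (adjusted p = 0.0424) and Irf1 of -0.53 (adjusted p = 0.0569). Of these, Stat2 passed with the mouse as a replicate block in limma-voom (adjusted p = 0.00922). Per transcript length, Irf7 was at 76.9 ± 26.3 FPKM (SD, n = 5) in GUCY2Chi and 145 ± 62.5 in GUCY2Cmed, and Irf1 at 111 ± 25.1 and 132 ± 35.5.

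Among the sensors of viral nucleic acid, the RIG-I gene Ddx58 and the MDA5 gene Ifih1 differed in pattern. Ddx58 was at 13.9, 5.19, 8.33, 7.63 and 11.7 cpm in GUCY2Chi and 40.2, 29.9, 18.8, 20.7 and 32.1 cpm in GUCY2Cmed. It did not overlap between the groups and fell with a log2 fold change of -1.60 (SE 0.30, adjusted p = 0.00201), and it passed in each of the 10 fits without 1 library. Ifih1 was at 10.2, 15.1, 12.6, 11.0 and 12 cpm in GUCY2Chi and 15.9, 11.7, 12, 11.6 and 14.8 cpm in GUCY2Cmed. The Ifih1 ranges overlapped, and its log2 fold change of -0.11 (SE 0.18, adjusted p = 0.674) was above 0, at 0.18, when libraries were scaled by their totals alone. The difference between the changes of these genes was not tested. Dhx58 (LGP2, a RIG-I-like helicase) and Zbp1 (a sensor of Z-form nucleic acid) had log2 fold changes of -1.12 (adjusted p = 0.0477) and -1.43 (adjusted p = 0.0144).

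Isg15, a ubiquitin-like protein, and Usp18, the protease that removes it and that also restrains type I interferon receptor signaling, had fold changes of opposite sign. Usp18 was at 144, 112, 79.3, 150 and 59.5 cpm in GUCY2Chi and 26.0, 65.5, 27.2, 12 and 27.3 cpm in GUCY2Cmed. It was higher in GUCY2Chi in 5 of 5 mice, and the groups overlapped only through the GUCY2Cmed library of mouse 7 and the GUCY2Chi library of mouse 15. The log2 fold change was 1.78 (SE 0.41, adjusted p = 0.00591), and per transcript length Usp18 was at 135 ± 46.7 FPKM (SD, n = 5) in GUCY2Chi and 32.8 ± 21.7 in GUCY2Cmed. The adjusted p was 0.0157 with the mouse as a replicate block in edgeR and 0.00785 with the same block in limma-voom, and Usp18 passed in 3 of 10 fits without 1 library. Isg15 was at 8.61, 2.95, 18.6, 3.01 and 31.1 cpm in GUCY2Chi and 60.6, 61.3, 34.4, 24.2 and 41.4 cpm in GUCY2Cmed, lower in every mouse but with overlapping ranges, and did not pass (log2 fold change -1.79, SE 0.61, adjusted p = 0.0361). Without the GUCY2Chi library of mouse 15, Isg15 passed.

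All 8 antiviral effectors had log2 fold changes below 0, from -2.51 to -0.78, and 1 passed the test. Ifit3, which with the other IFIT proteins recognizes foreign RNA, was at 2.76, 4.22, 4.47, 5.09 and 8.0 cpm in GUCY2Chi and 18.3, 84.5, 11.6, 13.6 and 12.2 cpm in GUCY2Cmed. The groups did not overlap, and the GUCY2Cmed library of mouse 7 lay far above the others. The log2 fold change was -2.51 (SE 0.60, adjusted p = 0.00678), and Ifit3 passed in 5 of 10 fits without 1 library. With the mouse as a replicate block its adjusted p was 0.0268. Ifit1, which binds RNA lacking a host-type cap, was at 15.3, 6.69, 44.1, 11.0 and 71.2 cpm in GUCY2Chi and 150, 243, 89.5, 52.6 and 117 cpm in GUCY2Cmed. It was lower in GUCY2Chi in every mouse and overlapped through mouse 15 of GUCY2Chi and mouse 14 of GUCY2Cmed (log2 fold change -2.14, SE 0.63, adjusted p = 0.0199). Oas1a and Oasl2, of the oligoadenylate synthetase family that activates RNase L or acts beside it, had log2 fold changes of -1.57 (adjusted p = 0.0130) and -1.45 (adjusted p = 0.0108). Bst2 (tetherin, which holds virions at the cell surface), Ifit2, Oas2 and Rsad2 (viperin) had adjusted p values from 0.0533 to 0.381, and the Oas2 change turned from -1.05 to 0.31 without the GUCY2Cmed library of mouse 7.

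Of the 5 other induced genes, Trim38 and Apol10a showed the lowest fold changes of the set. Trim38, a ubiquitin ligase of innate immune signaling, was at 4.03, 1.03, 9.01, 4.86 and 12.5 cpm in GUCY2Chi and 41.6, 76.0, 20.6, 71.9 and 30.6 cpm in GUCY2Cmed (log2 fold change -2.93, SE 0.59, adjusted p = 0.00284). Apol10a, an apolipoprotein L family gene, was at 1.88, 3.26, 8.93, 4.09 and 8.06 cpm in GUCY2Chi and 22.3, 139, 16.2, 71.6 and 20.1 cpm in GUCY2Cmed (log2 fold change -3.36, SE 0.68, adjusted p = 0.00314). Neither overlapped between the groups, and in both the GUCY2Cmed libraries of mice 7 and 14 were the highest. With the mouse as a replicate block in edgeR neither passed, with adjusted p values of 0.0217 for Trim38 and 0.0202 for Apol10a, while the same block in limma-voom gave 0.00970 and 0.00774. Xaf1 and Ifi44 had log2 fold changes of -1.12 (adjusted p = 0.0342) and -1.80 (adjusted p = 0.0758), both with the GUCY2Cmed library of mouse 7 far above the rest. Ifi27, which encodes a mitochondrial protein, was at 122 to 193 cpm in GUCY2Chi and 107 to 196 cpm in GUCY2Cmed, with a log2 fold change of 0.21 (adjusted p = 0.468).

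No interferon-induced GTPase of the set passed the test. Igtp (Irgm3), an immunity-related GTPase that acts at the membranes of parasite vacuoles, was at 15.9, 5.25, 29.1, 11.4 and 46.7 cpm in GUCY2Chi and 76.7, 90.2, 51.8, 78.5 and 84.6 cpm in GUCY2Cmed. The groups did not overlap, the log2 fold change was -1.82 (SE 0.47) and the adjusted p of 0.0107 missed the threshold, while the replicate block in limma-voom gave 0.00982. Igtp overlaps Irgm2 on the same strand in the table, and Irgm2 held 37.2% as many counts, so reads could be split between them. Irgm1, Gbp3 and Gbp7 had log2 fold changes of -0.33, -1.22 and 0.04 with adjusted p values from 0.142 to 0.952.

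Of the 7 class I genes, 3 fell (42.9%, where 8.79% of all genes fell), beside 2 of the 5 other induced genes (40%). Tap1, a subunit of the transporter that carries peptides into the endoplasmic reticulum, was at 21.9, 14.4, 25.7, 16.5 and 27.2 cpm in GUCY2Chi and 112, 69.8, 43.9, 83.5 and 66.6 cpm in GUCY2Cmed. Its partner Tap2 was at 40.2, 35.5, 54.0, 49.7 and 58.8 cpm and 102, 99.6, 67.8, 109 and 120 cpm in the same order. Both were separated in full between the groups and fell, Tap1 with a log2 fold change of -1.83 (SE 0.27, adjusted p = 4.86e-04) and Tap2 with -1.06 (SE 0.19, adjusted p = 0.00175). Tap1 passed in all 20 alternative analyses run and Tap2 in 19 of 20.

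The immunoproteasome subunits Psmb9 and Psmb8 replace constitutive subunits and change which peptides are cut. Psmb9 was at 78.2, 37, 144, 68.5 and 119 cpm in GUCY2Chi and 204, 245, 265, 322 and 236 cpm in GUCY2Cmed, with no overlap (log2 fold change -1.51, SE 0.32, adjusted p = 0.00379). Psmb9 passed in 5 of 10 fits without 1 library and in 15 of 20 alternative analyses. Psmb8 was at 89.6, 43.3, 185, 93.3 and 210 cpm and 276, 300.3, 329, 315 and 381 cpm, also with no overlap, and its log2 fold change of -1.37 (SE 0.36) had an adjusted p of 0.0118, and of 0.00503 with the mouse as a replicate block in limma-voom. Psmb9 and Tap1 overlap on opposite strands in the table, and the counting was not stated to use strand, so reads in the overlap could be assigned to either. The constitutive subunits Psmb5, Psmb6 and Psmb7 had log2 fold changes of -0.06, -0.43 and -0.34, and 0 of 3 passed the edgeR test at an adjusted p of 0.874, 0.124 and 0.209. Whether these differ from the immunoproteasome subunits was not tested.

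B2m, the light chain of every classical class I molecule, was at 917, 570, 2674, 978 and 2601 cpm in GUCY2Chi and 3883, 2733, 3932, 4454 and 5331 cpm in GUCY2Cmed. The highest GUCY2Chi library, of mouse 12, lay just under the lowest GUCY2Cmed library, of mouse 7. The log2 fold change of -1.39 (SE 0.44) did not pass (adjusted p = 0.0267), and with the mouse as a replicate block it was -1.63 with an adjusted p of 0.0140 in edgeR and 0.00458 in limma-voom. Per transcript length, B2m and H2-D1 were the most abundant genes of the set, B2m at 1962 ± 1277 FPKM (SD, n = 5) in GUCY2Chi and 4257 ± 787 in GUCY2Cmed, and H2-D1 at 2388 ± 555 and 2887 ± 736. These neighbors in the order of levels did not separate beyond their spread in GUCY2Chi.

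H2-K1, a class I heavy chain, was split by mouse more than by group. It was at 637, 24.5, 929, 35.2 and 1040 cpm in GUCY2Chi and 1669, 61.3, 1319, 99.9 and 2029 cpm in GUCY2Cmed. Mice 7 and 14 were low in both groups, and within each mouse GUCY2Chi was lower, in 5 of 5 mice. Without the mouse in the fit the log2 fold change was -0.96 (SE 1.11, adjusted p = 0.546). With the mouse as a replicate block it was -1.14 (SE 0.23), with an adjusted p of 0.0105 in edgeR and 0.00367 in limma-voom. H2-T23, a nonclassical heavy chain outside the set whose values were looked at after those of H2-K1, ran the other way across mice: it was at 234 to 411 cpm in both groups of mice 7 and 14 and at 20.8 to 93.6 cpm in the other mice. Class I heavy chains are polymorphic, near-identical genes and the mice are outbred, so the authors' counting could split reads among them, and these levels are uncertain. The part of alleles in the split was not tested. H2-D1 was at 2317, 1244, 2679, 1700 and 1963 cpm in GUCY2Chi and 3269, 2950, 2635, 1745 and 3783 cpm in GUCY2Cmed, with a log2 fold change of -0.54 (SE 0.29, adjusted p = 0.167).

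**Figure D3:**
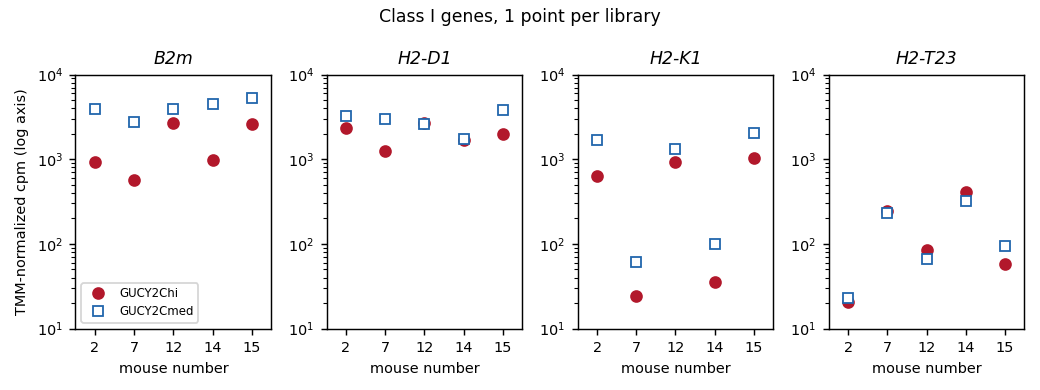
Level of B2m, H2-D1, H2-K1 and H2-T23 in TMM-normalized cpm on a log axis, with 1 point per library, filled circles for GUCY2Chi and open squares for GUCY2Cmed, by mouse number. H2-K1 lies at 24.5 to 99.9 cpm in mice 7 and 14 and at 637 to 2029 cpm in mice 2, 12 and 15, and H2-T23 has the opposite order.

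Within each mouse, the size of the difference was not the same. The median over the 35 genes of the log2 difference between the GUCY2Chi and GUCY2Cmed libraries of 1 mouse was -1.38 in mouse 2, -2.51 in mouse 7, -0.50 in mouse 12, -1.18 in mouse 14 and -0.86 in mouse 15, while the median over all genes lay between -0.03 and 0.17. The libraries at both ends were those already described. In 19 of 35 genes the 2 highest GUCY2Chi libraries were those of mice 12 and 15 (54.3%, where 21.1% of all genes had this order, and 38.3% of genes with a log2 fold change below 0). These are the GUCY2Chi libraries with the high enterocyte and lymphocyte marker sums, and the part of those cells in the result was not tested. Without mice 12 and 15 the median log2 fold change was -1.80 and 13 genes were lower (where 10.7% of all genes were). In those 3 libraries against 3, 20 genes were lower without overlap (where 23.9% of all genes were) and Usp18 was higher without overlap (where 29.7% of all genes were). In 20 of 35 genes the GUCY2Cmed library of mouse 7 was the highest GUCY2Cmed library (57.1%, where 26.6% of all genes had this order). Of the 32 genes with a log2 fold change below 0, 17 had this order (53.1%, where 32.3% of all such genes did). The GUCY2Cmed library of mouse 7 also had the highest sum of 10 proliferation markers in the GUCY2Cmed group, 583 cpm against 261 to 404 cpm. Between the groups this sum moved with the genes of the set, at 78.1 to 197 cpm in GUCY2Chi and 261 to 583 cpm in GUCY2Cmed. Of these 10 markers 8 fell, beside 2 of the 12 enterocyte markers (where 8.79% of all genes fell). The part of the proliferation markers in the result was not tested. Without mouse 7 the median log2 fold change was -0.95.

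**Figure D4:**
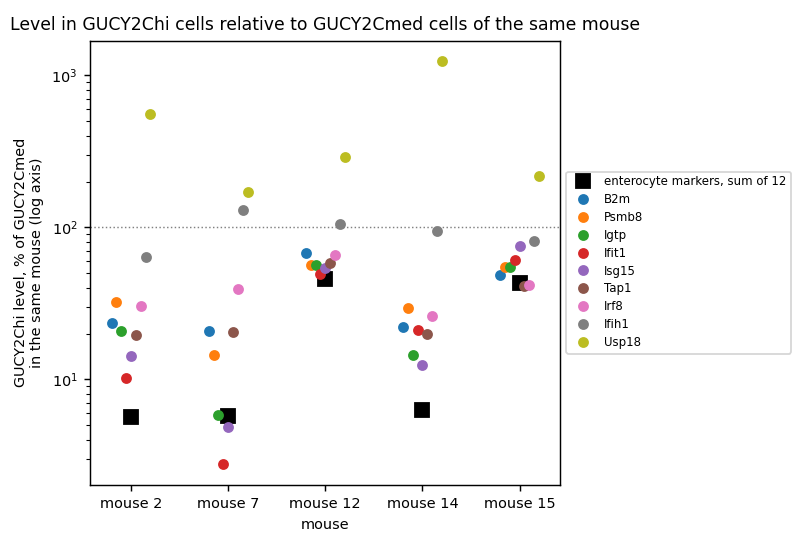
Level in GUCY2Chi as a percentage of the level in GUCY2Cmed of the same mouse, on a log axis, for 9 genes of the set (circles) and the sum of 12 enterocyte markers (squares), with the dotted line at 100%. The squares lie at 45.8% and 43.0% in mice 12 and 15 and near 6% in the others, Usp18 lies above 100% in every mouse, and Ifih1 lies on both sides of 100%.

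The rest of the pathway was described from a list of 123 further genes, of which 99 were tested, 20 fell and 5 rose at an adjusted p under 0.01 (20.2% lower, where 8.79% of all genes were, and 13.9% of all genes were higher). These genes too were listed with earlier results of these data known. None of the 10 interferon ligand genes listed passed the filter on low counts. Among the receptors and JAK-STAT genes 4 of 13 fell. These included the interferon gamma receptor chains Ifngr1 and Ifngr2, with log2 fold changes of -1.05 (adjusted p = 0.00496) and -1.38 (adjusted p = 0.00391), and Irf9, with -1.16 (adjusted p = 0.00500). With the mouse as a replicate block in edgeR the adjusted p was 0.0105 for Irf9. The type I receptor chains Ifnar1 and Ifnar2 had log2 fold changes of -0.54 (adjusted p = 0.0587) and 0.65 (adjusted p = 0.0344). Il10rb, the second chain of the type III receptor, did not overlap between the groups (63.2 to 84.1 cpm in GUCY2Chi and 89.0 to 131 cpm in GUCY2Cmed) and had an adjusted p of 0.0107. The kinases Jak1, Jak2 and Tyk2 did not pass, with log2 fold changes of 0.33, -0.71 and -0.53.

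Downstream of the sensors, 3 of 14 genes of the IRF family and adaptors fell: Mavs, the mitochondrial adaptor of Ddx58 (log2 fold change -0.95), the kinase Tbk1 (-1.05) and the adaptor Ticam1 (-1.13). Of 38 other interferon-stimulated genes tested, 10 fell and 2 rose (8.79% of all genes fell and 13.9% rose, here and for the adaptors). Those with the lowest fold changes were the nuclear body genes Sp100 (log2 fold change -2.60, adjusted p = 0.00410) and Pml (-1.47, adjusted p = 0.00223), the nucleotide kinase Cmpk2 (-1.62, adjusted p = 0.00356) and the ubiquitin ligase Dtx3l (-1.43, adjusted p = 2.06e-04). Isg20, an exonuclease that degrades viral RNA, rose from 0.171 to 1.69 cpm in GUCY2Cmed to 18.8 to 57.0 cpm in GUCY2Chi (log2 fold change 5.88, SE 0.56, adjusted p = 2.66e-05). Lgals3bp, a secreted glycoprotein, also rose (log2 fold change 1.17, adjusted p = 0.00949), with overlapping ranges. Under the replicate block in edgeR, Pml and Lgals3bp had adjusted p values of 0.0141 and 0.0283. Without 1 library, Sp100 and Cmpk2 each passed in 5 of 10 fits and Lgals3bp in 2, while Pml, Dtx3l and Isg20 passed in all 10. Among 8 other interferon-induced GTPases Irgm2 fell (log2 fold change -1.71, adjusted p = 0.00207), and Gbp8, named after its values were seen, rose (4.33, adjusted p = 7.46e-05). In this group 5 of 8 log2 fold changes were above 0, with a median of 1.56, and Gbp4, Tgtp2, Gbp9 and Tgtp1 (2.43, 1.92, 1.62 and 1.5) did not pass and had mean levels of at most 1.89 cpm in either group. Gbp4, Gbp8 and Gbp9 overlap on the same strand in the table, so reads could be split between them. Their fold changes may therefore not be independent.

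Of 23 other class I genes tested, 2 fell (8.7%, close to the 8.79% of all genes) and 2 rose (where 13.9% of all genes did). The proteasome activator subunits Psme1 and Psme2 fell, with log2 fold changes of -0.81 (adjusted p = 0.00583) and -1.31 (adjusted p = 0.00936), and the replicate block left Psme1 at an adjusted p of 0.0172. Cd1d1, which presents lipids to natural killer T cells, was at 8.63 to 23.7 cpm in GUCY2Chi and 0.432 to 1.31 cpm in GUCY2Cmed (log2 fold change 4.45, SE 0.41, adjusted p = 2.23e-05). H2-M3, which presents formylated peptides, was at 12.1 to 23 cpm and 3.18 to 8.43 cpm (log2 fold change 1.61, SE 0.30, adjusted p = 0.00195). Neither Cd1d1 nor H2-M3 overlapped between the groups. Nlrc5, the transactivator of class I genes, was not tested and stayed at or under 0.385 cpm in every library.

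**Figure D5:**
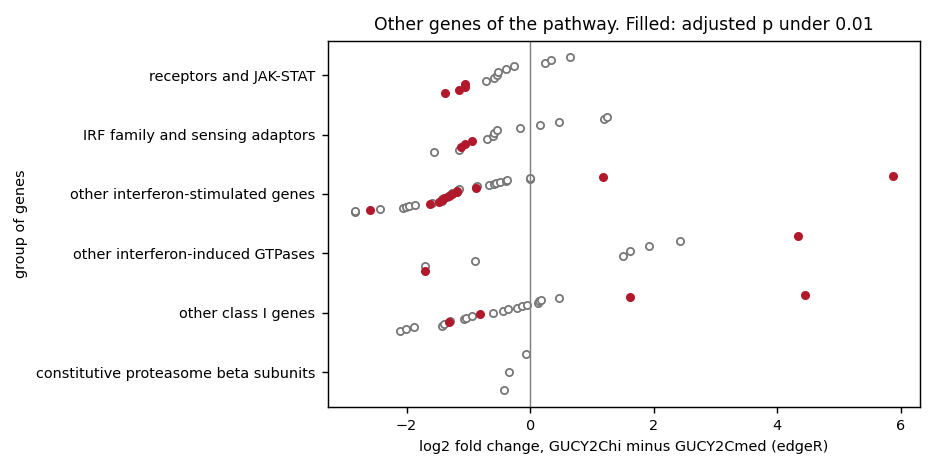
Log2 fold change (GUCY2Chi minus GUCY2Cmed) of the 99 further pathway genes tested, 1 point per gene, in rows by group of genes, with filled points for an adjusted p under 0.01. Filled points lie left of 0 for 20 genes, and the 5 to the right are Isg20, Cd1d1, Gbp8, H2-M3 and Lgals3bp.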

How the data were processed

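RNA was sequenced from 10 libraries, GUCY2Chi and GUCY2Cmed cells of 5 mice. The authors aligned paired reads with STAR and deposited gene counts and FPKM values (fragments scaled to transcript length and library total) in 1 table. The labels name mm9, but the table's positions overlap GRCm38.p6 RefSeq genes for 99.8% of 37795 matched symbols and NCBIM37 genes for 9.68% of 28602, so coordinates are on GRCm38. The deposited limma results (fold changes and p-values, made with limma 3.40.6 and edgeR 3.26.8 per the labels) and 10 normalized per-library columns were not used.

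Counts were tested with edgeR 4.0.16 (R 4.3.3): cpm over 0.5 in at least 3 libraries, TMM factors, a quasi-likelihood test without a block, Benjamini-Hochberg adjustment over 15703 genes and a threshold of 0.01. Levels are TMM-normalized cpm. P-values of the fit without a block measure the spread between the libraries of a group, 1 per mouse, and leave out the pairing by mouse. Those of the fits with a block measure the spread of the differences within mice. A value of 0.1 cpm was added before log2 differences within mice. Fits were tested on simulated data. Alternatives used limma 3.58.1 (voom), DESeq2 1.42.0, other scalings and filters, and fewer libraries. No libraries held identical counts (0 pairs).

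Same-numbered libraries were taken to come from 1 mouse sorted into both groups, so the number pairs them. The correlation of their deviations from the group means was -0.11, -0.223, 0.272, -0.124 and 0.0607 for mice 2, 7, 12, 14 and 15. By this measure 1 GUCY2Chi library, that of mouse 12, correlated best with the GUCY2Cmed library of its own number. The 36 genes, the 123 further genes and the marker lists were chosen with earlier results of these data known. All 36 genes were described by role. Of the further genes, up to 5 per direction with the largest changes among those called and over an average of 5 cpm were named, beside fixed receptor, kinase, Nlrc5 and constitutive proteasome genes. Mavs, Tbk1, Ticam1, Psme1, Psme2, Gbp8 and H2-T23 were named after their values were seen. Gene Cgas was not found under that name. Promoter windows for Usp18, Zbp1, Dhx58, Oas2, Tap2 and Ifi27 were not matched. Promoter sequences are from RefSeq. Some genes of the lists are not reported here.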

Additional observations from a re-analysis of the deposited data

Results flagged for a closer look

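In groups of 5 libraries, a library was singled out when its gap to the nearest other, divided by the range, passed Dixon's 95% critical value. Chance alone flags about 1 in 20 groups, or 4.5 of the 90 gene and group pairs examined, and 10 were flagged. Of these, 8 were the GUCY2Cmed library of mouse 7 standing above the others: Dhx58 at 28.5 cpm (nearest 12.4), Usp18 at 65.5 (27.3), Ifit3 at 84.5 (18.3), Oas1a at 254 (102), Oas2 at 10.4 (2.23), Ifi44 at 29.3 (4.96), Xaf1 at 48.3 (21.6) and Irgm1 at 75.9 cpm (44.9). Ifnlr1 was highest in the GUCY2Chi library of mouse 15, at 3.46 cpm (nearest 1.67). Irgm2 was lowest in the GUCY2Cmed library of mouse 12, at 17.7 cpm (nearest 28.8).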

How the results depend on the processing

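Of the 36 genes, 9 were lower and 1 was higher. With the mouse as a replicate block in edgeR the counts were 5 and 0, and in limma-voom with that block 12 and 1. DESeq2 gave 16 lower, an adjusted p under 0.05 gave 21, and leaving out both libraries of mouse 7 (chosen after seeing the data) gave 4. Without mice 12 and 15, 0 genes were higher and 21 did not overlap (53.6% of all genes did not, with 3 libraries against 3, and 29.9% in the full design). Leaving out 1 library gave 5 (without GUCY2Chi of mouse 2) to 14 (without GUCY2Chi of mouse 15) lower and 0 to 1 higher. It gave 10 to 18 without overlap (18 without GUCY2Cmed of mouse 14, where 31.4% of all genes did not overlap). Across the fits without 1 library, 30.6% to 36.8% of all genes did not overlap. The share of all genes called in these fits is not given, so their counts of calls cannot be set against it. For the further genes, the counts were 20 lower and 5 higher. A looser threshold of 0.05 gave 49 lower (where 17.6% of all genes were) and 11 higher (21.4% of all genes). DESeq2 gave 36 lower (14.2% of all genes) and 8 higher (18.8%). Library size alone gave 8 lower (3.55% of all genes) and 8 higher (18.5%). Leaving out mouse 7 gave 5 lower (2.19% of all genes). Without 1 library, 8 (without GUCY2Chi of mouse 7) to 27 were lower. With at least 10 counts in every library, 3 were higher. For these last counts the share of all genes is likewise not given. Signs turned for genes that did not pass: Ifih1 (-0.11) to 0.18 by library size alone, 0.019 with at least 10 counts, and -0.18 to 0.0095 without 1 library (0.0090 and 0.0095 without either of mouse 2); Oas2 (-1.05) to 0.0049 without mouse 7 and -1.36 to 0.31 without 1 library (0.31 without GUCY2Cmed of mouse 7); Gbp7 (0.04) to -0.037 without mice 12 and 15 and -0.092 to 0.26 without 1 library (below 0 without GUCY2Chi of mouse 7 or GUCY2Cmed of mice 12 or 14); and Irgm1 (-0.33) to 0.022 without mouse 7. The cause was not tested. Over 44 genes, 751 of 874 gene values under an alternative kept direction and side of the threshold, 77 lost the call, 35 gained it and 11 turned. Scaling by library size alone moved the median log2 fold change of all genes from 0.09 to 0.39. Tap1, Irf8 and Dtx3l passed in all 20 alternatives, and Isg20 and Cd1d1 in all 19 that gave a value. In edgeR the replicate block changed no other call of a gene of the set beyond those given with its values. Low counts (3 for Oas2) limit the precision of low genes.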
